A study of Mus musculus with 6 samples.

Results

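The transcription factor p53 and 9 of its best known target genes were followed in mouse dermal cells that lack Nelfb, a subunit of the negative elongation factor that holds RNA polymerase II in a paused state shortly after it starts a gene. The 10 genes were Trp53, which codes for p53 itself, Mdm2, Cdkn1a, Ccng1, Bax, Bbc3, Pmaip1, Phlda3, Zmat3 and Eda2r. They were taken by gene symbol, and all 10 were among the 17924 genes with deposited values. Dermal fibroblasts came from the dorsal skin of newborn (P0) mice on a C57BL/6J background and were kept in adipocyte differentiation medium for 14 days. All cells carried Pdgfra-Cre. Nelfb-/- cells were Nelfb fl/fl, control (CTL) cells were either Nelfb fl/wt or Nelfb wt/wt, and which of the control genotypes a library had is not given in the sources used here. The Cre was thus shared by both groups, and Pdgfra drives it in fibroblasts and preadipocytes. Cells that never had Pdgfra activity, themselves or in their precursors, would keep Nelfb, and which cells did so was not measured. RNA-seq was made from 3 biological replicates of each group, 6 libraries in all.

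p53 is made continuously and is destroyed almost as fast, mainly through Mdm2, an E3 ubiquitin ligase whose gene p53 itself switches on. DNA damage and other stresses stabilize the p53 protein, which then binds a pair of short half-sites near its target genes and raises the transcription of genes that stop the cell cycle, trigger cell death or feed back on p53. Because this control acts mostly on the protein, the level of the Trp53 mRNA and the levels of the target mRNAs are separate readouts. In fibroblasts the pathway is best known for arrest and senescence, and in adipose tissue for restraining adipocyte differentiation.

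The DNA that p53 recognizes was looked up in the promoters of the 10 genes, to show what the target genes have in common beyond their names. RefSeq promoter windows (GRCm38.p6), which run from 250 bases before to 50 bases after a gene's start, were given for 8 of the 10 genes in 11 windows, and none was given for Pmaip1 and Zmat3. The consensus of the 10-base p53 half-site is its own reverse complement, so that a search of 1 strand covers both. It was found in full in 5 of the 11 windows, and in 8.36% of all 32851 promoter windows of the same length. A pair of half-sites with 0 to 13 bases between them and at most 2 departures from the consensus outside the cores was found in 2 of the 11 windows, those of Cdkn1a and Bax, and in 2.12% of all windows. In the window of the upstream start of Cdkn1a (chr17:29090913-29090962, plus strand), 2 half-sites adjoin from position -51 relative to the start with 1 departure, and a further half-site in full begins at -73, which makes a pair with 0 departures and 12 bases between its half-sites. A pair of Bax (chr7:45467064-45467114, minus strand) begins at -201, has 1 base between the half-sites and holds 2 departures, and another that shares a half-site with it begins at -216, with 5 bases between and 2 departures. Single half-sites in full begin at -186 in Mdm2 (chr10:117710920-117710959, minus strand), at -185 in Ccng1 (chr11:40755447-40755486, minus strand) and at -75 in Trp53 (chr11:69580269-69580308, plus strand). The more compact pair of Cdkn1a and of Bax and the single half-sites are printed 5′ to 3′ on the strand of the gene, with the half-sites in capitals and the flanking bases in lower case.
Cdkn1a: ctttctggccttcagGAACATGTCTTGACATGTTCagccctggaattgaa
Bax: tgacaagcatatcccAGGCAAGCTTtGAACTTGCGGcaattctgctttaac
Mdm2: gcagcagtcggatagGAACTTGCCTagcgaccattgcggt
Ccng1: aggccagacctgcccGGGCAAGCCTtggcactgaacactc
Trp53: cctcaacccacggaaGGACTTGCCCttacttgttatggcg
A match is a description of the letters and was not tested as a binding site. No half-site in full was in the windows of Phlda3, Bbc3 and Eda2r or in the other window of Cdkn1a (chr17:29093519-29093818). This says only that these letters are not within those stretches. Sites further away or within introns, which are well known for Mdm2, are outside the windows.

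Levels were given by the authors in CPM, which counts the reads of each gene within 1e+06 reads of a library, and gene length was not corrected for. Where 3 values of a group are given, they stand in the order of replicates 1, 2 and 3. The depth read from the smallest steps between values lay between 17.1 M and 29.3 M reads (M, 1e+06) per library, and 3 reads, taken as the floor of detection, were worth 0.102 to 0.175 CPM. Genes were tested where their mean reached 10 reads at a common depth (0.449 CPM), with limma on log2(value + 1 read), and all 10 genes were among the 16251 tested. A gene is said to have passed when its Benjamini-Hochberg adjusted p over all genes tested was at most 0.05. A log2 fold change above 0 means a higher level in Nelfb-/- cells, and SE is its standard error. Nelfb was measured at 17.3, 19.6 and 22.3 CPM in the CTL libraries and at 5.50, 3.90 and 5.55 CPM in the Nelfb-/- libraries, so that the labels of all 6 libraries fit the genotype.

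The libraries of a group were not alike. On the second principal component of the log2 values, which held 27.7% of the variance, CTL replicate 3 stood at -74.9 and Nelfb-/- replicate 1 at 79.1, with the other 4 libraries between -29.6 and 21.9. Adipocyte markers were present in every library, and the sum of 8 of them lay between 22477 and 36625 CPM in CTL and between 14487 and 22939 CPM in Nelfb-/- cells. Fabp4 stood at 12706 to 17827 CPM in CTL and at 4571 to 10808 CPM in Nelfb-/- cells, Plin1 at 782 to 1196 CPM and at 286 to 710 CPM, and Adipoq at 698 to 1857 CPM and at 488 to 802 CPM. Lep had 0.180 to 2.04 CPM in CTL and 10.3 to 33.0 CPM in Nelfb-/- cells. Of all genes tested, 9.96% passed as higher and 5.83% as lower, by the threshold given above. Of 8 adipocyte markers tested, 1 (Lep) passed as higher and 0 as lower, and of 7 fibroblast or preadipocyte markers tested 0 passed. The summed level of 8 fibroblast or preadipocyte markers was 3980, 3392 and 13883 CPM in the CTL libraries and 6477, 20481 and 22912 CPM in the Nelfb-/- libraries. The sum of 8 macrophage markers lay between 166 and 652 CPM in CTL and between 1649 and 5166 CPM in Nelfb-/- cells, highest in Nelfb-/- replicate 1, and 7 of the 8 markers passed as higher. The sum of 6 melanocyte markers was 48.6 to 73.7 CPM in CTL and 51.9 to 168 CPM in Nelfb-/- cells, that of 6 skeletal muscle markers 6.91 to 9.21 CPM and 42.3 to 68.6 CPM, and that of 5 keratinocyte markers 2.75 to 3.17 CPM and 6.69 to 14.6 CPM. Several genes of these 3 lists reached the limit for testing only through the Nelfb-/- libraries, so that no calls are counted for them. The melanocyte gene Tyr was listed at 0 in every CTL library and stood at 2.33 to 4.88 CPM in the Nelfb-/- libraries, and all 8 macrophage markers were above 0 in every library. Markers of Schwann cells passed as higher at 3 and lower at 1 of 5 genes and those of endothelial cells at 0 of 4, and the part of any of these cells in the results below was not tested. In cultures measured as a whole, more cells of a type and more RNA per cell cannot be told apart.

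Trp53 was the member that differed between the genotypes. The gene (ENSMUSG00000059552) spans chr11:69580359-69591873 in mm10, plus strand. Its mRNA stood at 27.8, 28.5 and 44.9 CPM in the CTL libraries and at 52.5, 71.1 and 70.6 CPM in the Nelfb-/- libraries. The groups did not overlap, with CTL replicate 3 and Nelfb-/- replicate 1 nearest to each other. The mean rose from 33.8 ± 9.69 CPM (SD, n = 3) to 64.7 ± 10.6 CPM (log2 fold change 0.96, SE 0.24, 95% interval 0.40 to 1.52, adjusted p = 0.0396 by limma). This is a 1.95-fold increase, just under the 2-fold limit that the study applied to its own lists. The adjusted p rose above 0.05 when CTL replicate 1 or 2 or Nelfb-/- replicate 2 or 3 was left out (0.124 to 0.150 by limma), with upper-quartile scaling (0.0523) and without the abundance trend in the variance (0.0594), while the log2 fold change stayed between 0.84 and 1.18 over all 15 alternatives. For a single gene in 3 against 3 libraries, the smallest p of an exact two-sided permutation test is 0.1. Among the Nelfb-/- libraries, Trp53 was lowest in replicate 1, in which the macrophage sum was highest at 5166 CPM. The fibroblast or preadipocyte sum was lowest of these libraries in the same replicate, at 6477 CPM. Between the genotypes, the macrophage sum was higher in Nelfb-/- cells (1649 to 5166 CPM against 166 to 652 CPM). The part of cell types in the level of Trp53 was not tested.

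Reads of Trp53 can also match Trp53-ps, a processed copy of the gene, which was listed at 5.78% to 6.47% of the Trp53 level in each of the 6 libraries. Its log2 fold change was 0.92 (SE 0.32, adjusted p = 0.0994 by limma), which did not pass. Wrap53, which starts next to Trp53 on the opposite strand and shares no exon base with it, had 4.96, 5.46 and 7.21 CPM in the CTL libraries and 7.30, 9.66 and 7.87 CPM in the Nelfb-/- libraries (log2 fold change 0.50, SE 0.23, adjusted p = 0.186 by limma).

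**Figure D1:**
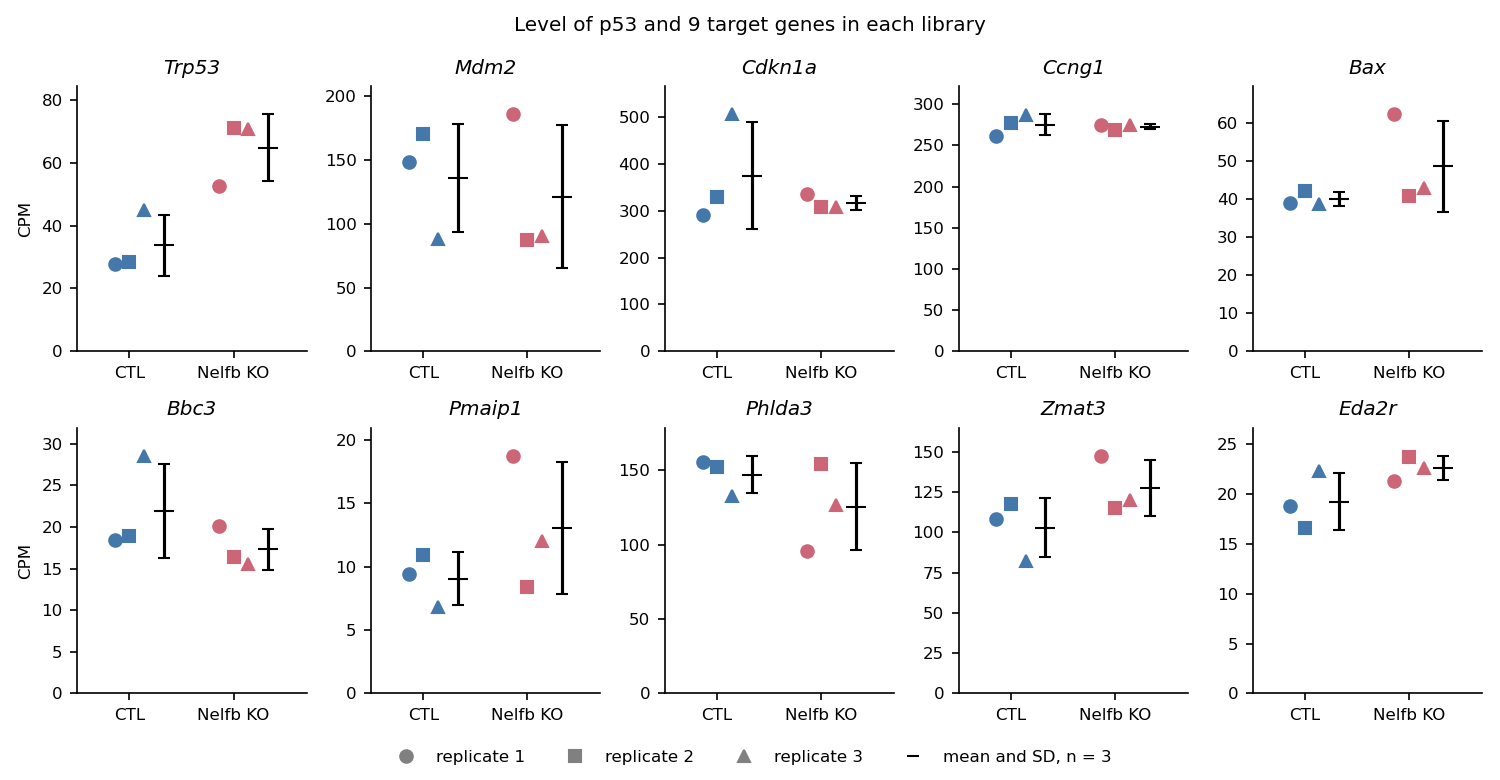
Level in CPM (y axis, from 0, a scale of its own in each panel) of p53 and its 9 target genes in 3 CTL and 3 Nelfb-/- libraries, with symbols for replicates 1 to 3 and a bar for the mean and SD of each group. Only in the panel of Trp53, from 27.8 to 44.9 CPM in CTL and from 52.5 to 71.1 CPM in Nelfb-/- cells, do the groups lie apart.

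Of the 10 members, 1 passed as higher in Nelfb-/- cells and 0 as lower, whereas 15.8% of all genes tested passed, 9.96% as higher and 5.83% as lower. With the added limit of 2-fold, 0 members passed in either direction, whereas 11.2% of all genes did, 7.58% as higher and 3.64% as lower. The groups lay apart for 1 of the 10 members and for 38.1% of all genes, 22.0% with all Nelfb-/- libraries above and 16.1% with all below. Among the 9 target genes, 0 passed with limma, 0 had an unadjusted p under 0.05 (5278 of all genes had), and for 0 did the groups lie apart. Log2 fold changes of the targets ran from -0.32 for Bbc3 to 0.47 for Pmaip1, with 4 of them above 0 and 5 below. Their median was -0.011, and that of all genes tested was 0.068. Without CTL replicate 3 the median of the targets was 0.039, with 6 of 9 above 0, and with median-of-ratios scaling it was -0.080 while that of all genes was -0.00084. For 7 of the 9 targets the 95% interval of the log2 fold change lay within 2-fold in both directions, and the 2 with wider intervals were Mdm2 and Pmaip1. Adjusted p of the targets lay between 0.284 and 0.965 with limma, and over 15 alternatives it did not fall below 0.129 for any of them.

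**Figure D2:**
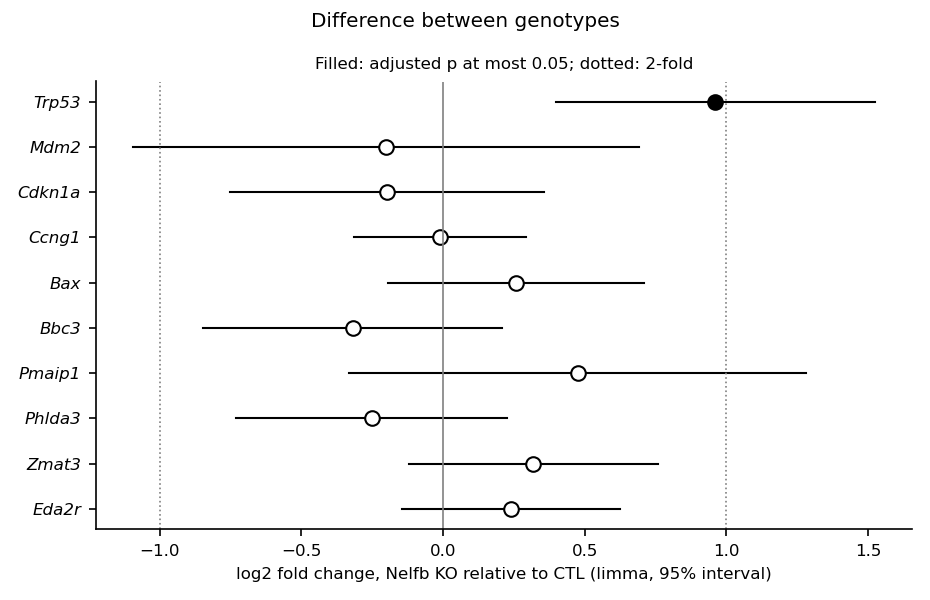
Log2 fold change of each member in Nelfb-/- relative to CTL cells (x axis), with the 95% interval from limma as a line, a filled point where the adjusted p was at most 0.05 and dotted lines at 2-fold. Trp53 at 0.96 is the filled point, and the 9 targets lie between -0.32 and 0.47 with intervals that include 0.

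Mdm2 codes for the ligase that marks p53 for destruction, and its level differed widely between libraries of the same genotype. The gene (ENSMUSG00000020184, chr10:117688875-117710758, minus strand) gave 149, 170 and 88.4 CPM in the CTL libraries and 186, 87.6 and 90.2 CPM in the Nelfb-/- libraries. Thus 2 CTL libraries and 1 Nelfb-/- library were high, 1 CTL and 2 Nelfb-/- libraries were low, and no library lay between 90.2 and 149 CPM. The log2 fold change between genotypes was -0.20 (SE 0.37, 95% interval -1.10 to 0.69, adjusted p = 0.744 by limma). With 1 library left out in turn it ran from -0.56, without Nelfb-/- replicate 1, to -0.012, without CTL replicate 2. Trp53 did not follow this order, since Nelfb-/- replicates 2 and 3 held its highest values and were among the lowest for Mdm2.

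Ccng1, which codes for cyclin G1, a partner of the phosphatase PP2A that acts on Mdm2, was the steadiest member. It was measured at 262, 277 and 287 CPM in the CTL libraries and at 275, 269 and 274 CPM in the Nelfb-/- libraries. All 3 Nelfb-/- libraries lay inside the range of the CTL libraries, and the highest of the 6 values was 1.10 times the lowest. The log2 fold change was -0.011 (SE 0.13, 95% interval -0.32 to 0.29, adjusted p = 0.965 by limma).

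The arrest of the cell cycle by p53 runs mainly through Cdkn1a, which codes for p21, an inhibitor of cyclin-dependent kinases. The window of the upstream start of this gene (ENSMUSG00000023067, chr17:29090976-29100727, plus strand) held the adjoining half-sites shown above. The level was 289.5, 329 and 505 CPM in the CTL libraries and 334, 308 and 309 CPM in the Nelfb-/- libraries. CTL replicate 3 stood above the other 5 libraries, which lay within 289.5 to 334 CPM. The log2 fold change was -0.20 (SE 0.23, 95% interval -0.75 to 0.36, adjusted p = 0.596 by limma), and without CTL replicate 3 its sign turned, to 0.039. Zmat3, which codes for an RNA-binding zinc finger protein that alters splicing, had 108, 118 and 82.5 CPM in the CTL libraries and 147, 115 and 120 CPM in the Nelfb-/- libraries. It came nearest to the threshold among the targets, with a log2 fold change of 0.32 (SE 0.18, 95% interval -0.12 to 0.76, adjusted p = 0.284 by limma), and CTL replicate 2 lay above Nelfb-/- replicate 2. Without CTL replicate 3 the value was 0.17, and without Nelfb-/- replicate 1 it was 0.21.

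Bax, Bbc3 and Pmaip1 belong to the cell death arm of the pathway. Bax opens the outer mitochondrial membrane, and Bbc3 (PUMA) and Pmaip1 (NOXA) are BH3-only proteins that free it to do so. Bax had 38.9, 42.0 and 38.7 CPM in the CTL libraries and 62.2, 40.7 and 42.8 CPM in the Nelfb-/- libraries. Nelfb-/- replicate 1 was the 1 high library, and the log2 fold change of 0.26 (SE 0.19, 95% interval -0.20 to 0.71, adjusted p = 0.395 by limma) was 0.065 without it. Bbc3 had 18.5, 18.9 and 28.5 CPM in the CTL libraries and 20.2, 16.4 and 15.5 CPM in the Nelfb-/- libraries, with CTL replicate 3 as the high library. Its log2 fold change was -0.32 (SE 0.22, 95% interval -0.85 to 0.21, adjusted p = 0.365 by limma), and -0.12 without CTL replicate 3. Pmaip1 was the weakest expressed of the 3 genes, with 9.43, 10.9 and 6.80 CPM in the CTL libraries and 18.7, 8.38 and 12.04 CPM in the Nelfb-/- libraries. As for Bax, the highest level was in Nelfb-/- replicate 1, and the log2 fold change was 0.47 (SE 0.34, 95% interval -0.33 to 1.28, adjusted p = 0.379 by limma). It was 0.18 without that library and 0.75 without Nelfb-/- replicate 2.

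Phlda3 codes for a protein with a PH domain that keeps the kinase Akt from the membrane. It had 155, 152 and 133 CPM in the CTL libraries and 95.4, 154 and 127 CPM in the Nelfb-/- libraries (log2 fold change -0.25, SE 0.20, 95% interval -0.73 to 0.23, adjusted p = 0.428 by limma), and the log2 fold change was -0.070 without Nelfb-/- replicate 1 and -0.41 without Nelfb-/- replicate 2. Here Nelfb-/- replicate 1, in which 4 other targets were highest, had the lowest level of the 6 libraries. Eda2r codes for a receptor of the tumor necrosis factor family that binds the A2 form of ectodysplasin. It had 18.8, 16.6 and 22.3 CPM in the CTL libraries and 21.3, 23.7 and 22.6 CPM in the Nelfb-/- libraries. The groups overlapped only through CTL replicate 3, which lay above Nelfb-/- replicate 1, and the log2 fold change was 0.24 (SE 0.16, 95% interval -0.15 to 0.62, adjusted p = 0.351 by limma), or 0.14 without CTL replicate 2.

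The gene for the ligand of Eda2r fell. Eda (ENSMUSG00000059327, chrX:99975606-100400762) codes for ectodysplasin. Its level was 16.6, 15.5 and 16.5 CPM in the CTL libraries and 3.98, 5.06 and 5.92 CPM in the Nelfb-/- libraries. The highest Nelfb-/- library was less than 0.5 times the lowest CTL library, and the log2 fold change came to -1.71 (SE 0.20, 95% interval -2.19 to -1.22, adjusted p = 0.00590 by limma). The decrease passed in all 15 alternatives. Which share of these reads codes for the A2 form was not measured, since values were given per gene. The related receptor Edar was not among the listed genes, and its adaptor Edaradd was below the limit for testing.

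Across the 9 targets, the spread between libraries of 1 genotype took different libraries for different genes. Mdm2, Bax, Pmaip1 and Zmat3 were highest in Nelfb-/- replicate 1, and Cdkn1a, Ccng1 and Bbc3 were highest in CTL replicate 3. Bax, Pmaip1 and Zmat3 had their lowest level in CTL replicate 3. Relative to the mean of the 6 libraries, Nelfb-/- replicate 1 deviated by 0.61 for Mdm2, 0.51 for Bax, 0.83 for Pmaip1, 0.37 for Zmat3 and -0.49 for Phlda3 on the log2 scale. CTL replicate 3 deviated by 0.57 for Cdkn1a and 0.56 for Bbc3, but by -0.46 for Mdm2 and for Zmat3 and by -0.62 for Pmaip1. The targets thus did not rise or fall as 1 block in either library.

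**Figure D3:**
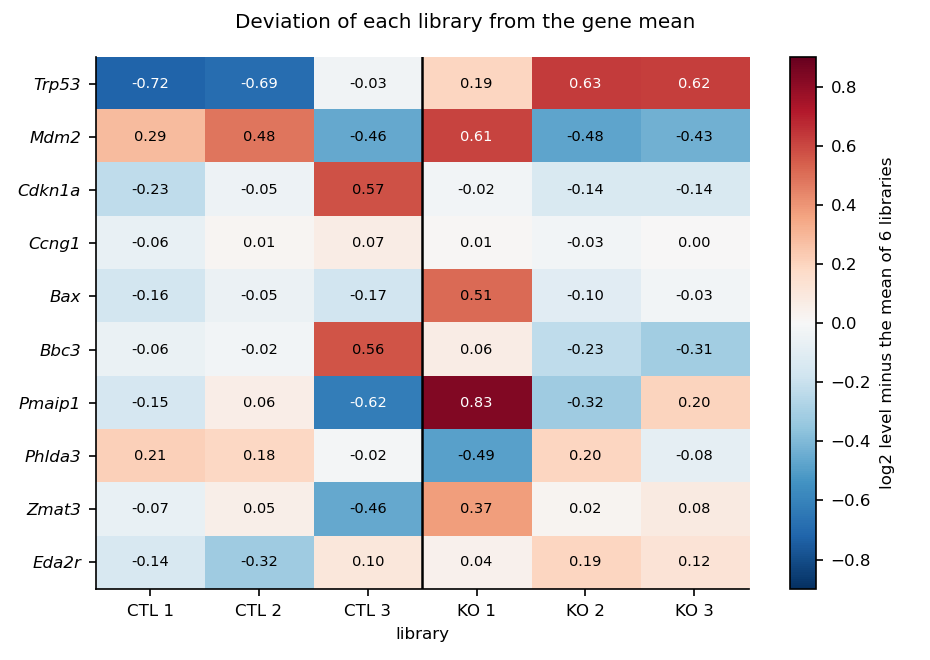
Log2 level of each member (rows) in each library (columns) minus its mean over the 6 libraries, with CTL left and Nelfb-/- (KO) right of the line. Trp53 goes from -0.72 in CTL replicate 1 to 0.63 in Nelfb-/- replicate 2 along the genotypes, whereas Mdm2, Bax, Pmaip1 and Zmat3 are highest in Nelfb-/- replicate 1 and Cdkn1a and Bbc3 in CTL replicate 3.

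For a comparison of levels between genes, CPM was divided by the length of all exons of a gene (CPM per kb, exons of GENCODE M21). In CTL cells, Cdkn1a (105 CPM per kb), Phlda3 (94.2) and Ccng1 (78.3) were the most abundant members, followed by Mdm2 (26.7) and Bax (25.3). Bbc3, Zmat3 and Trp53 had 10.3, 8.998 and 8.35 CPM per kb, and Pmaip1 and Eda2r had 3.31 and 3.26. The libraries of neighbours in this order overlapped for Cdkn1a and Phlda3, for Mdm2 and Bax, for Bbc3, Zmat3 and Trp53 in turn, and for Pmaip1 and Eda2r. In Nelfb-/- cells the level of Trp53 was 16.0 CPM per kb, and every library was above the Zmat3 level (mean 11.2 CPM per kb), with which it overlapped in CTL. The same 3 genes led in Nelfb-/- cells, with Cdkn1a at 89.3, Phlda3 at 80.4 and Ccng1 at 77.7 CPM per kb, and none of these neighbours was apart from the next beyond its spread.

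A further 30 established targets of p53 were examined in the same fit, and all 30 were tested. Of these, 2 passed as higher in Nelfb-/- cells, Plk2 and Steap3, and 2 passed as lower, Ei24 and Ppm1d. This is 13.3% of the list beside 15.8% of all genes. The median log2 fold change was -0.053, with 13 genes above 0 and 17 below. Plk2, which codes for a polo-like kinase, had 16.1, 24.3 and 26.8 CPM in the CTL libraries and 48.9, 56.0 and 62.0 CPM in the Nelfb-/- libraries. Each Nelfb-/- library was above each CTL library (log2 fold change 1.34, SE 0.22, adjusted p = 0.0132 by limma), and it was the 1 gene of the list past 2-fold as well. Steap3, which codes for a metalloreductase of the endosome, rose from 18.9 ± 2.15 CPM (SD, n = 3) to 32.9 ± 5.10 CPM (log2 fold change 0.79, SE 0.17, adjusted p = 0.0276 by limma). Ppm1d codes for WIP1, a phosphatase that acts against p53 as part of its feedback, and it fell from 31.5 ± 2.77 CPM (SD, n = 3) to 20.6 ± 2.20 CPM (log2 fold change -0.62, SE 0.15, adjusted p = 0.0382 by limma). Ei24, which codes for a membrane protein of the endoplasmic reticulum, fell from 89.1 ± 6.04 CPM (SD, n = 3) to 61.0 ± 1.79 CPM (log2 fold change -0.54, SE 0.12, adjusted p = 0.0285 by limma). The number past the threshold was 9 without CTL replicate 3, 1 when CTL replicate 1 or 2 was left out, and 0 when Nelfb-/- replicate 2 or 3 was. Plk2 lost its call in 2 of 15 alternatives, Steap3 in 4, and Ei24 and Ppm1d in 6 each, so that without the abundance trend 2 genes passed as higher and 0 as lower.

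Among 24 genes whose products modify, stabilize, degrade or resemble p53, 23 were tested and 4 passed, which is 17.4% of the list beside 15.8% of all genes. Their median log2 fold change was 0.0077, with 12 genes above 0 and 11 below. Trp53bp1, which codes for the DNA repair protein 53BP1, rose from 28.7 ± 2.47 CPM (SD, n = 3) to 48.6 ± 0.655 CPM (log2 fold change 0.76, SE 0.13, adjusted p = 0.0131 by limma). Ppp1r13b, which codes for ASPP1, a partner that steers p53 towards cell death genes, rose from 12.2 ± 1.75 CPM to 22.0 ± 1.26 CPM (SD, n = 3; log2 fold change 0.86, SE 0.17, adjusted p = 0.0204 by limma). Trp53bp1 and Ppp1r13b each lost their call in 4 of 15 alternatives. Sirt1, a deacetylase that acts on p53, rose by a log2 fold change of 0.87 (SE 0.22, adjusted p = 0.0445 by limma), a call that was lost in 7 of 15 alternatives. Rpl11, a ribosomal protein that can bind Mdm2, was lower by a log2 fold change of -0.68 (SE 0.16, adjusted p = 0.0384 by limma) and also lost its call in 7 of 15, and genes of ribosomal proteins have many close copies in the genome with which reads can be shared. Mdm4, the relative of Mdm2, had 86.1 CPM on average in CTL and 69.1 CPM in Nelfb-/- cells (log2 fold change -0.36, limma, adjusted p = 0.444). Without CTL replicate 1, Nelfb-/- replicate 2 or Nelfb-/- replicate 3, 0 genes of the list passed, 1 (Sirt1) passed without CTL replicate 2, 2 without Nelfb-/- replicate 1 and 6 without CTL replicate 3.

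Among the other cell death genes, Casp8 and Bid were higher in Nelfb-/- cells, and Hrk was listed at 0 there. Of 20 genes of the BCL2 family, the caspases and their mitochondrial activators and inhibitors, 19 were tested, and 2 passed as higher, a share near the 9.96% of all genes. Hrk reached the limit for testing only through its level in CTL, so that it is given by its values and not as a call. The median log2 change of the list was 0.096. Casp8, which codes for the caspase that death receptors activate, had 24.2, 26.5 and 25.8 CPM in the CTL libraries and 51.4, 43.7 and 48.8 CPM in the Nelfb-/- libraries (log2 fold change 0.91, SE 0.13, adjusted p = 0.00914 by limma). The groups were wide apart. Bid, which codes for the link from Casp8 to Bax, rose from 15.1 ± 1.07 CPM to 25.6 ± 0.797 CPM (SD, n = 3; log2 fold change 0.76, SE 0.14, adjusted p = 0.0163 by limma). Hrk, a further BH3-only gene, held 19.95 to 24.9 reads in the CTL libraries and was listed at 0 in all 3 Nelfb-/- libraries, at least 6.33-fold lower against a floor of 3 reads per library. Casp9 and its activator Apaf1 did not pass, with log2 fold changes of -0.076 (limma, adjusted p = 0.815) and 0.36 (limma, adjusted p = 0.251). Bid did not pass when CTL replicate 1, CTL replicate 2 or Nelfb-/- replicate 2 was left out, and neither Casp8 nor Bid passed without Nelfb-/- replicate 3. The summed macrophage level was also higher in the Nelfb-/- libraries (1649 to 5166 CPM against 166 to 652 CPM), and the part of those cells in the increase was not tested.

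**Figure D4:**
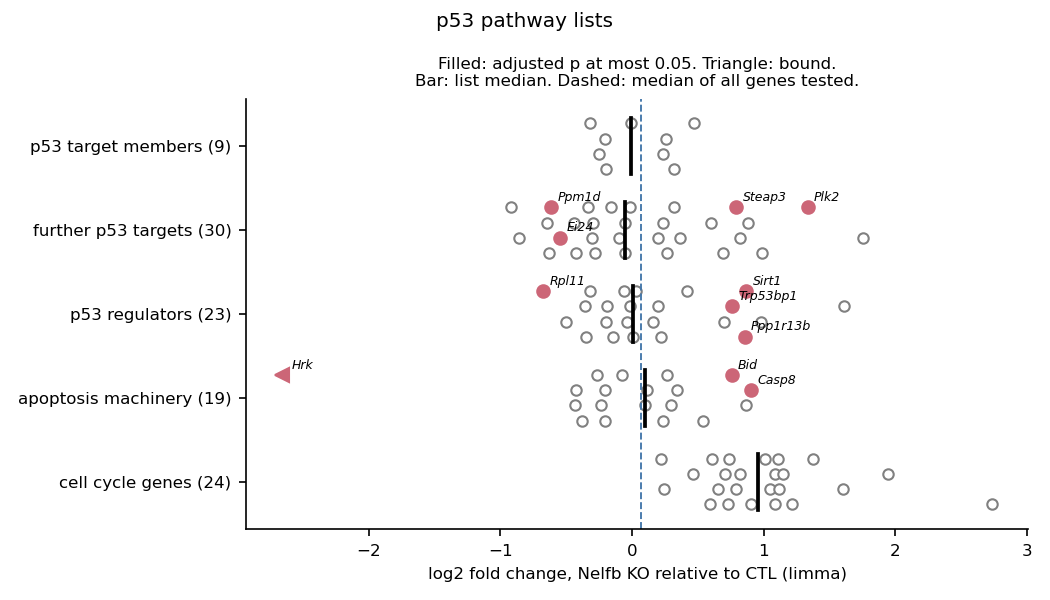
Log2 fold change in Nelfb-/- relative to CTL cells (x axis) for the 9 targets and 4 further lists (rows, with the number of genes tested), with filled points for an adjusted p of at most 0.05, a black bar for the list median, a dashed line for the median of all genes tested (0.068) and a triangle for Hrk at its bound. The median is -0.011 for the 9 targets and 0.96 for the cell cycle genes, where no point is filled.

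The cell cycle genes that p53 and p21 are known to bring down were listed as the far end of the pathway. All 24 of them were tested. With limma 0 passed (15.8% of all genes tested did) and 0 had an unadjusted p under 0.05 (5278 of the 16251 genes tested had). Even so, all 24 had a log2 fold change above 0 (54.6% of all genes tested did), with a median of 0.96. Their levels differed widely between libraries of the same group. Mki67, the gene of the proliferation antigen Ki67, had 29.4, 26.3 and 140 CPM in the CTL libraries and 39.6, 162 and 139 CPM in the Nelfb-/- libraries (log2 fold change 1.01, SE 0.79, limma, adjusted p = 0.424). Rrm2, a subunit of ribonucleotide reductase, had 9.92, 11.2 and 125 CPM in the CTL libraries and 27.8, 123 and 115 CPM in the Nelfb-/- libraries (log2 fold change 1.60, SE 1.08, limma, adjusted p = 0.352). With 1 library left out in turn, the log2 fold change ran from 0.58 (without CTL replicate 2) to 1.79 (without CTL replicate 3) for Mki67 and from 0.97 (without CTL replicate 1) to 2.79 (without CTL replicate 3) for Rrm2. Without CTL replicate 3, 2 of the 24 genes had an adjusted p of at most 0.05 with limma, Rrm2 and Cdc6, but Cdc6 is not taken as a call. Its remaining CTL values, 0.361 and 0.187 CPM, lay under the limit for testing (0.449 CPM), which it reached only through its level in Nelfb-/- cells.

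The summed level of the 24 cell cycle genes was 155, 157 and 802 CPM in the CTL libraries and 191, 880 and 796 CPM in the Nelfb-/- libraries. The libraries with a high sum were thus those with a low level of Mdm2 (87.6 to 90.2 CPM), and the libraries with a low sum were those in which Mdm2 was high (149 to 186 CPM), in both genotypes. Trp53 was higher in the libraries with a high sum within each genotype, at 44.9 CPM against 27.8 and 28.5 CPM in CTL and at 71.1 and 70.6 CPM against 52.5 CPM in Nelfb-/- cells. The fibroblast marker sum given above took the same sides within each genotype. Cdkn1a was higher in the CTL library with the high sum (505 CPM against 289.5 and 329 CPM), whereas in the Nelfb-/- libraries with a high sum it stood at 308 and 309 CPM against 334 CPM in the other. With 3 libraries a group, and with the macrophage sum and the second principal component moving between the same libraries, the part of proliferation or of cell types in the levels of Mdm2 and Trp53 was not tested.

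**Figure D5:**
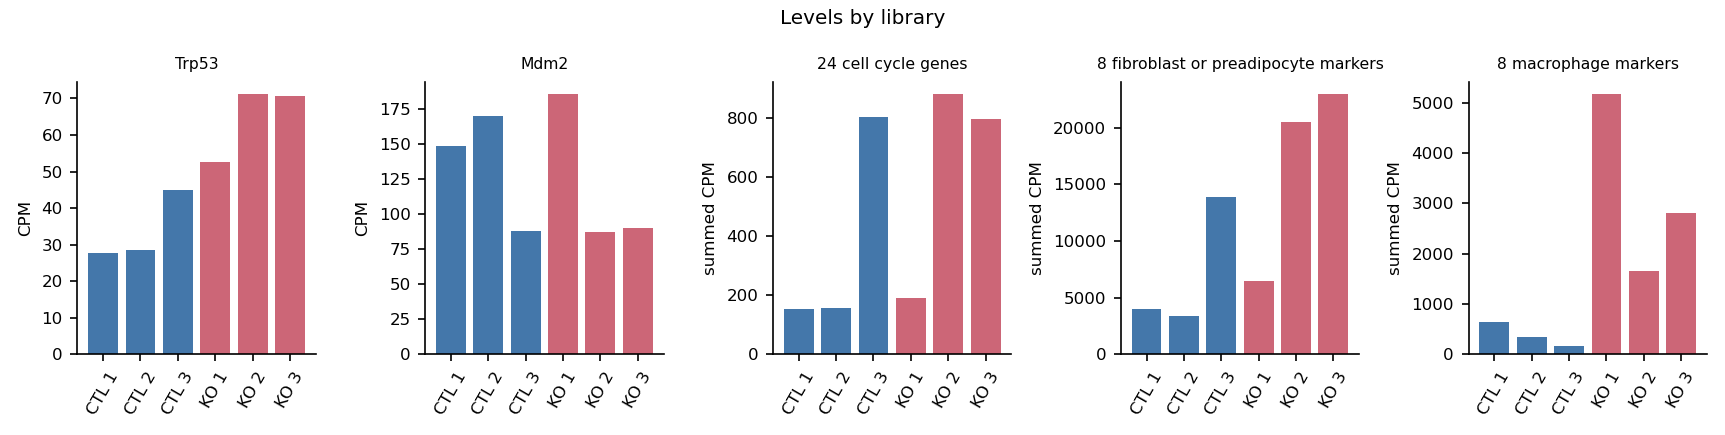
Level by library (x axis, CTL in blue and Nelfb-/-, written KO, in red) of Trp53 and Mdm2 in CPM and of the summed CPM of 24 cell cycle genes, 8 fibroblast or preadipocyte markers and 8 macrophage markers (bars from 0). Mdm2 is at 149 to 186 CPM in the 3 libraries whose cell cycle sum is 155 to 191 CPM and at 87.6 to 90.2 CPM in the 3 whose sum is 796 to 880 CPM.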

How the data were processed

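RNA-seq of 3 CTL and 3 Nelfb-/- cultures was analysed from 1 deposited table. The authors' methods name mm10, a minimum of 10 reads per gene and the tools DESeq2 and Partek, and the submitters' processing notes name STAR 2.7 and Partek 9.0.20.0202. How reads with several matches and how strands were counted is not given in the sources used here. The deposited values are in CPM with an offset of 0.0001 added, since each column summed to 1e+06 once it was subtracted. Between 73.3% and 76.3% of the values below 20 reads were whole multiples of 1 step (within 0.05 reads), so no count test was run. The step gave the depth, 17.1 M to 29.3 M reads, and the floor of 3 reads covers counting error only.

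Each CPM value was put on a shared scale of 22.3 M reads and tested with limma 3.58.1 (R 4.3.3) with an abundance trend, genotype as the only term, and p adjusted by Benjamini and Hochberg. Intervals are limma's 95% intervals. The code was tested on simulated data. Alternatives were other pseudocounts, filters, scalings, no trend, a replicate block and each library left out. Exon lengths and IDs come from GENCODE M21 (GRCm38), and all 10 members had the same span there. Besides Trp53, whose copy is described with it, Cdkn1a and Bax overlap annotated genes that are not among the listed genes. Each p-value sets the difference between the group means against the spread between these cultures.

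The members, the lists and the tests were chosen with earlier results of these data known. Named genes were the 10 members, Nelfb and, from each list, up to 4 genes in each direction with the largest change among those past the threshold with groups apart, or the 2 most abundant where none passed. Trp53-ps, Wrap53, Mdm4, Casp9, Apaf1, Cdc6 and the markers Adipoq, Plin1, Fabp4, Lep and Tyr were named after their values were seen. The lists were written from general knowledge. Some genes of the apoptosis list are not reported here and were left out of its counts.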

Additional observations from a re-analysis of the deposited data

How the results depend on the processing

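Of 150 values of the 10 members under 15 alternatives, 142 kept their direction and their side of the threshold, 6 lost the call of Trp53, and 2 changed sign without CTL replicate 3, neither of them called: Cdkn1a, -0.20 with all libraries and from -0.36 to 0.039 with 1 left out, and Ccng1, -0.011 and from -0.046 to 0.019. The number of members past the adjusted p was 1, and 0 with upper-quartile scaling and without the abundance trend, which also left 2 further p53 targets and 2 p53 regulators in place of 4 each. With 1 library left out in turn, the counts ran from 0 to 1 for the members, also with the 2-fold limit. They ran from 0 to 9 for the further targets and from 0 to 6 for the regulators. For the apoptosis genes they ran from 1 to 4, or from 0 to 3 once Hrk, which is not taken as a call, is set aside. For the cell cycle genes they ran from 0 to 2, or from 0 to 1 once Cdc6, also not taken as a call, is set aside. Over all genes they ran from 434 to 3669, against 2566 with all libraries, and from 426 to 2480 with the 2-fold limit, against 1824. The count over all genes rose without CTL replicate 3 (3669) and without Nelfb-/- replicate 1 (2949), and fell without each of the other libraries. Each such fit has fewer libraries, and the cause of these changes was not tested. Replicate numbers were shared by the groups, and the deviations of same-numbered libraries had correlations of 0.52, -0.39 and 0.52 across genes, so the numbers were not taken as pairs. With the number as a replicate block, 2690 genes passed, and 1 member, 3 further targets (all higher, without Ei24 and Ppm1d), 3 regulators, 4 apoptosis genes (3 without Hrk) and 0 cell cycle genes. The lowest value of a member was 6.80 CPM, against a floor of 3 reads worth 0.102 to 0.175 CPM, and how far depth limits the detection of a change was not tested.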

Other observations

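Some of the further p53 targets differed more between libraries of a genotype than between the genotypes, and they were named after their values were seen. Trp53inp1, which codes for a nuclear partner of p53, had 469, 499 and 144 CPM in the CTL libraries (in the order of replicates 1, 2 and 3) against 322, 111 and 140.0 CPM in the Nelfb-/- libraries (adjusted p = 0.334 by limma). Gdf15, which codes for a secreted stress cytokine, stood at 50.7, 68.1 and 14.6 CPM against 323, 5.88 and 6.89 CPM, and Nelfb-/- replicate 1 was the highest of the 6 libraries (adjusted p = 0.811 by limma). Xpc, a gene of nucleotide excision repair, stood at 34.8, 35.3 and 19.7 CPM against 34.5, 19.4 and 19.2 CPM (adjusted p = 0.567 by limma). The 3 libraries with the highest levels of these genes were those with the highest levels of Mdm2. Because the genes were picked with their values known, this match does not describe the list. Gtse1 and Ak1, also further p53 targets, went the other way, with their highest levels in CTL replicate 3 and Nelfb-/- replicates 2 and 3. How many of the 30 genes took either side was not counted.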
